A study of Mus musculus with 7 samples.

Results

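The subunits of the GABA-A receptor described here are those encoded by Gabra2, Gabra3, Gabra4, Gabra5, Gabrb1, Gabrb2 and Gabrd. They were chosen by gene symbol and make up 7 of the 22248 genes in the deposited gene table, with 27 of its companion table's 102392 transcripts. GABA-A receptors are ligand-gated chloride channels assembled from several subunits, and they carry most of the fast inhibition in the brain. The α and β subunits together form the site that binds GABA, and the α subunit next to a γ subunit sets whether the receptor responds to classical benzodiazepines. Receptors with α5 or δ lie largely outside synapses in the hippocampus, where they give a steady, tonic inhibition. The δ subunit is known to pair with α4 in the granule cells of the dentate gyrus.

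Messenger RNA was sequenced from synaptoneurosomes, which are resealed nerve endings with attached postsynaptic fragments, isolated from the hippocampus. All libraries came from wild-type C57Bl/6J female mice. There were 4 libraries after sub-chronic AM6545 (replicates B, D, E and F) and 3 after vehicle (replicates B, D and E). AM6545 blocks the CB1 cannabinoid receptor and is known for its poor entry into the brain. The age, the dose, the length of treatment and the number of mice behind each library are not given in the sources used here, so p-values measure the spread between these libraries, which may be in part technical. The question was whether the mRNAs of the subunits differed in level, in transcript make-up or in proportion to each other between the treatments.

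Levels are given as CPM, counts scaled to library size in units of counts per 1000000 counts. Library totals ran from 19174649 to 25894733 estimated counts. Each subunit gene had between 408 and 8667 estimated counts in every library, and Gabrd had 703 to 989. Counting error was not compared with the spread between libraries. Vehicle replicate B stood apart for several subunits. Of the 11 lists of cell type markers, none had a gene at 0 in all libraries. Among the dentate granule cell markers was Prox1, at 42.1 ± 1.05 CPM (SD, n = 4) after AM6545 and 39.7 ± 6.13 (SD, n = 3) after vehicle. Of the 7 markers in that list, 5 had a log2 fold change (AM6545 over vehicle) above 0 and 2 below.

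Of the 4 α subunits, α4 differs in its own sequence from the others at the residue that sets benzodiazepine binding. This residue is shown because it is the best-known difference between them. The lines give 42 coding bases of GRCm38 around that codon, 5′ to 3′ in the sense of the gene, with the codon in capitals.
Gabra2: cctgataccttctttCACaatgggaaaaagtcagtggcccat
Gabra3: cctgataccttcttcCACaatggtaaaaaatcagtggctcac
Gabra4: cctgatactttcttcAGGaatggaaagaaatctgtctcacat
Gabra5: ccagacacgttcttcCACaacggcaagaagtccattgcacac
The codon was CAC, for histidine, in Gabra2, Gabra3 and Gabra5, whose receptors bind classical benzodiazepines. In Gabra4 it was AGG, for arginine, and α4 receptors are known to be insensitive to diazepam. The Gabra2 stretch is chr5:71014481-71014522 in exon 5 of 10, and that of Gabra3 is chrX:72501144-72501185 in exon 5 of 10. The Gabra4 stretch is chr5:71641128-71641169 in exon 4 of 9, and that of Gabra5 is chr7:57488867-57488908 in exon 5 of 10. All of them lie on the minus strand.

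Gabra2, Gabra4 and Gabrb1 lie together on chromosome 5 of GRCm38. Gabra2 (ENSMUSG00000000560.10) occupies chr5:70957597-71095849 and Gabra4 (ENSMUSG00000029211.12) chr5:71569749-71658308, both on the minus strand and 474 kb apart. Gabrb1 (ENSMUSG00000029212.12) occupies chr5:71658113-72149037 on the plus strand, head to head with Gabra4. Exons of these neighbours overlap on opposite strands at that end, by less than 31 bases at a stretch, and whether the counting used strand is not given in the sources used here. Gabra5 (ENSMUSG00000055078.8) is at chr7:57407672-57510059 on the minus strand, and 4.21% of its sequences of 31 bases also occur in the antisense gene Gm9962. Gabra3 (ENSMUSG00000031343.14) is at chrX:72432681-72656848 and Gabrd (ENSMUSG00000029054.9) at chr4:155384980-155398112, both on the minus strand. Gabrb2 (ENSMUSG00000007653.13) is at chr11:42419757-42629028 on the plus strand. Of sequences of 31 bases, Gabra2 shared 4 and Gabra3 shared 2 with other GABA-A subunit genes, and the other 5 shared none. In coding sequence, the most alike pair, Gabra2 and Gabra5, shared 67.9% of aligned bases, Gabrb1 and Gabrb2 shared 66.9%, and Gabra4 and Gabrd, the least alike of the 21 pairs, shared 46.7%.

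Per transcript length, Gabra5 was the most abundant of the 7 mRNAs by a wide margin. Its level was 235 ± 32.2 TPM (the same unit with counts first divided by transcript length; SD over all 7 libraries), with a range of 184 to 283. Gabrb1, which encodes β1, followed at 74.7 ± 7.37 TPM, Gabra4 at 51.8 ± 12.04 TPM and Gabra2 at 41.9 ± 5.44 TPM. Gabrd was at 35.6 ± 3.86 TPM, with Gabra3 at 15.5 ± 3.44 TPM and Gabrb2, which encodes β2, at 15.5 ± 4.75 TPM. The mean level of Gabra5 was 3.15 times that of Gabrb1, and their ranges over the libraries did not overlap. The ranges of Gabrd and Gabra3 were also apart, with a ratio of means of 2.29. The other neighbours in this order overlapped in range, although Gabrb1 was above Gabra4 within each of the 7 libraries. The place of Gabrb1 depended on the length used for its mRNA, since 1 of its 2 annotated transcripts is 13737 bases long and the other 799. Dividing the gene's counts by the length of the longest transcript put Gabrb1 at 29.2 TPM, below Gabra4, Gabra2 and Gabrd.

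**Figure D1:**
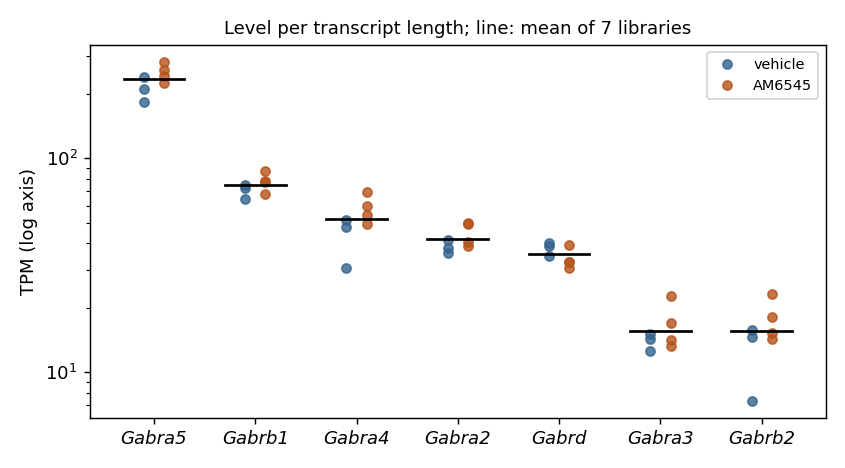
Level of each subunit mRNA per transcript length, in TPM on a log axis, with 1 point per library (vehicle in blue, AM6545 in orange) and a line at the mean of all 7. Gabra5 lies between 184 and 283 TPM in all libraries, above every other subunit, and Gabra3 and Gabrb2 lie lowest.

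No subunit gene differed between AM6545 and vehicle by edgeR's quasi-likelihood test at a Benjamini-Hochberg adjusted p under 0.05. The count was 0 of 7, beside 0.00682% of the 14654 genes tested, and DESeq2 and limma-voom also called 0 of the 7. At an unadjusted p under 0.05 there was 1 subunit, Gabrd, which was lower after AM6545; 8.7% of all genes tested were lower and 14.6% lay under it in either direction. Of the 7, 5 had a log2 fold change above 0, where 51.4% of all genes did. Their median was 0.12 beside 0.01 for all genes tested. In bulk RNA of this kind, fewer cells or endings of a type and less RNA in each cannot be told apart.

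Gabrd encodes δ, the subunit of tonic, extrasynaptic receptors. Its mRNA was at 30.4, 32.2, 38.2 and 32.0 CPM in AM6545 replicates B, D, E and F and at 39.8, 38.8 and 42.4 CPM in vehicle replicates B, D and E. All 4 AM6545 libraries lay below all 3 vehicle libraries, with AM6545 replicate E close under the lowest vehicle value. Groups that do not overlap were found with AM6545 lower for 7.19%, with AM6545 higher for 6.62% and in either direction for 13.8% of all genes tested. The log2 fold change was -0.28 (SE 0.11), with an unadjusted p of 0.020 and an adjusted p of 0.269 by edgeR with Benjamini-Hochberg adjustment. It was between -0.35 and -0.16 in the 19 alternative analyses, and adjusted p-values there ran from 0.082 to 1. The unadjusted p was under 0.05 in 11 of these alternatives and at or over it in 8. It was 0.128 after correction for GC and length, 0.246 with the replicate letter as a block in addition, and 0.053 with scaling to total counts. In TPM, which were not TMM-scaled, the groups overlapped, at 30.5 to 39.3 after AM6545 and 34.8 to 40.3 after vehicle.

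Beside the lower Gabrd values, the summed level of the 7 dentate granule cell markers overlapped between the groups, from 361 to 430 CPM after AM6545 and from 381 to 440 CPM after vehicle. The sum of the 5 CA1 markers did not overlap, at 664 to 731 CPM after AM6545 and 778 to 812 CPM after vehicle. Nor did those of the 6 pyramidal and granule neuron markers (3770 to 4089 against 4119 to 4842 CPM) and of the 4 oligodendrocyte precursor markers (248 to 262 against 277 to 307 CPM). By edgeR with Benjamini-Hochberg adjustment no marker gene passed 0.05. At an unadjusted p under 0.05, 2 of the 6 pyramidal and granule neuron, 2 of the 5 CA1 and 2 of the 4 oligodendrocyte precursor markers were lower. Of all genes tested, 8.7% were lower and 5.86% higher at that level. Of the 8 microglia markers 5 were lower, with sums of 733 to 775 CPM after AM6545 and 750 to 1007 CPM after vehicle. Also lower were 2 of the 9 interneuron, 1 of the 8 astrocyte and 1 of the 7 oligodendrocyte markers. Of the 6 CA3 and CA2 markers 1 was higher. The sums of the remaining lists overlapped, and how often sums of other genes do not overlap was not computed. The part of these marker differences in the Gabrd values was not tested.

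Gabra4 encodes α4, the partner of δ in dentate granule cells. Its level was 97.5, 113, 124 and 94.8 CPM in the AM6545 replicates and 72.7, 101 and 96.8 CPM in the vehicle replicates, in the order given above. Vehicle replicate B was the lowest library and AM6545 replicate E the highest, and the groups overlapped. This gave a log2 fold change of 0.25, with an SE of 0.13 ( adjusted p 0.407 by edgeR with Benjamini-Hochberg adjustment). Without vehicle replicate B it was 0.12, and without vehicle replicate D or E it was 0.34 or 0.30.

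Gabrb2 encodes β2, a subunit of many synaptic receptors. Its level was 30.8, 36.5, 45.2 and 28.6 CPM after AM6545 and 16.4, 31.2 and 31.6 CPM after vehicle. Vehicle replicate B again had the lowest value by far, the other libraries of the groups overlapped, and AM6545 replicate E was again highest. The log2 fold change of 0.42 (SE 0.23) was the largest of the 7 in size, with an adjusted p of 0.425 by edgeR with Benjamini-Hochberg adjustment. Without vehicle replicate B it was 0.17 (SE 0.17), and without vehicle replicate D or E it was 0.56 or 0.57.

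Gabrb1 showed the reverse order of the vehicle libraries. It was at 148, 174, 174 and 173 CPM after AM6545 and at 204, 173 and 159 CPM after vehicle, so that vehicle replicate B was here the highest of all 7. The groups overlapped, and the log2 fold change was -0.10 (SE 0.11; adjusted p 0.697 by edgeR with Benjamini-Hochberg adjustment). Without vehicle replicate B the log2 fold change was 0.01, and without vehicle replicate D or E it was -0.12 or -0.17.

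Gabra5 encodes α5, which is concentrated in the hippocampus and contributes to tonic inhibition of pyramidal cells. Its level was 294, 310, 355 and 333 CPM after AM6545 and 287, 313 and 292 CPM after vehicle. The 2 highest libraries, E and F, were AM6545 libraries and the others overlapped. Its log2 fold change was 0.12 (SE 0.10; adjusted p 0.577 by edgeR with Benjamini-Hochberg adjustment).

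Gabra2 and Gabra3 encode the α subunits of synaptic receptors on which benzodiazepines act. Gabra2 was at 82.1, 97.7, 102 and 87.5 CPM after AM6545 and at 94.6, 89.8 and 83.7 CPM after vehicle. Its lowest and its highest library were both AM6545 libraries. The log2 fold change was 0.04 (SE 0.10; adjusted p 0.859 by edgeR with Benjamini-Hochberg adjustment). Gabra3 was at 25.0, 30.9, 40.9 and 25.6 CPM after AM6545 and at 31.5, 27.8 and 24.1 CPM after vehicle. AM6545 replicate E lay above all other libraries and the rest of the groups overlapped. Its log2 fold change of 0.14 (SE 0.17; adjusted p 0.723 by edgeR with Benjamini-Hochberg adjustment) was -0.03 without that library. The log2 fold changes of Gabra2 and Gabra3 were 0.09 and 0.24 without vehicle replicate B.

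**Figure D2:**
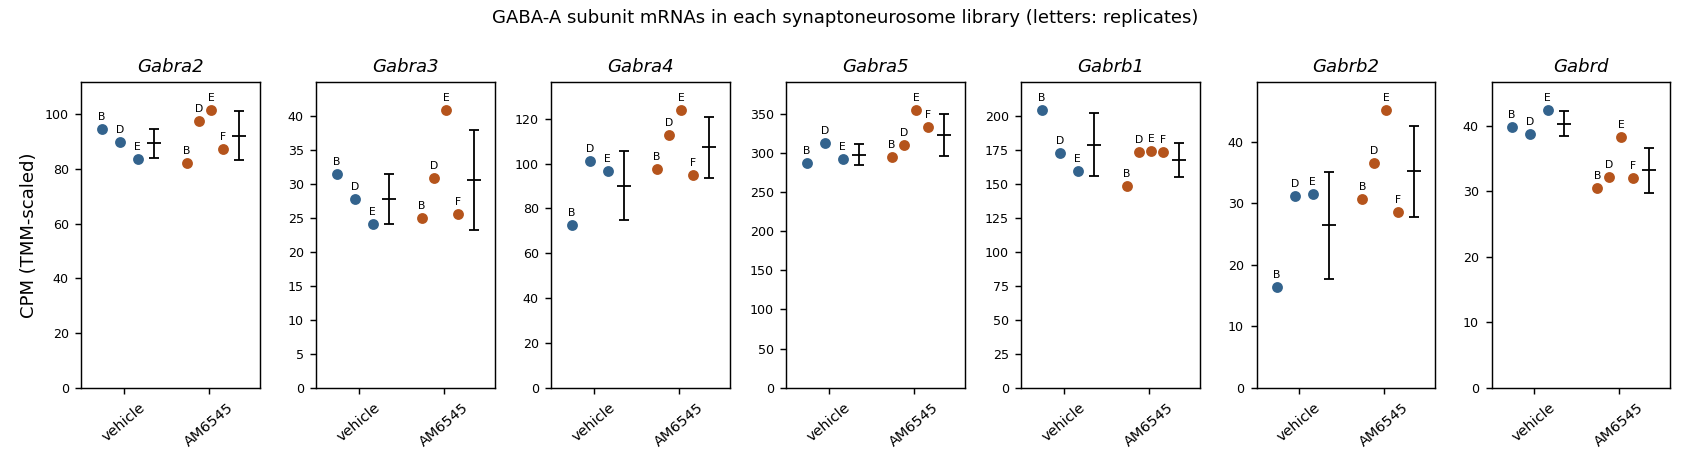
Level of each subunit gene in CPM after TMM scaling, from 0, with 1 labelled point per library and the mean ± SD of each group beside the points (vehicle n = 3, AM6545 n = 4). The groups do not overlap for Gabrd, and vehicle replicate B lies lowest for Gabra4 and Gabrb2 and highest for Gabrb1.

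The fold changes were set beside the GC content of the mRNAs, because differences between these groups varied with GC content across all genes. Gabrd, at 56.7% GC, was the subunit richest in GC, above 82.8% of genes tested, while the other 6 lay between 38.8% for Gabra2 and 46.3% for Gabra5. The 1389 genes within 1 percentage point of Gabrd in GC content had a median log2 fold change of -0.10, and the 421 genes as close to Gabra2 had a median of 0.17. For the other subunits such medians were between 0.09 for Gabra5 and 0.15 for Gabrb1. With the trends over GC and length taken out of each library, Gabrd had a log2 fold change of -0.18 and Gabrb2 one of 0.24. Those of Gabra4, Gabra5 and Gabrb1 were then 0.05, -0.02 and -0.01, and those of Gabra2 and Gabra3 were -0.17 and -0.09. The adjusted p-values of edgeR after this correction, by Benjamini-Hochberg, lay between 0.740 and 0.980.

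**Figure D3:**
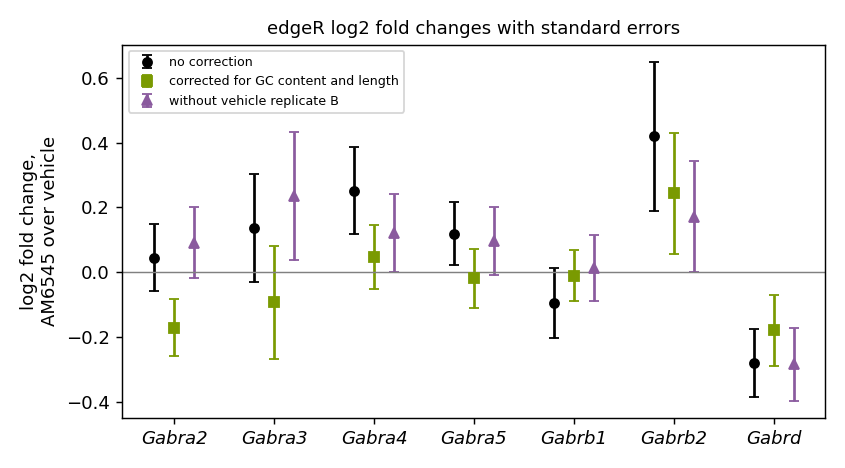
The log2 fold changes of the 7 subunit genes (AM6545 over vehicle, edgeR) with standard errors, for the uncorrected fit, after GC and length correction, and without vehicle replicate B. Gabrd is below 0 in each, from -0.28 to -0.18, and Gabrb2 is above 0 in each, from 0.42 down to 0.17.

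Proportions between subunits were also described, since receptors are assembled from several of them. These have no test. As a share of the summed TPM of the 7 subunits, Gabra5 made up 50.4% ± 1.83 after AM6545 (SD, n = 4) and 49.4% ± 0.869 after vehicle (SD, n = 3). The share of Gabrd was 6.86%, 6.57%, 6.83% and 6.70% after AM6545 and 9.17%, 8.13% and 9.38% after vehicle. The AM6545 shares were close together, with an SD of 0.134 percentage points, and lay below each of the vehicle shares. For the other 6 subunits the shares overlapped between the groups. Since the shares sum to a fixed total, each also depends on the levels of the other subunits. The TPM of Gabrd itself overlapped, at 30.5 to 39.3 after AM6545 and 34.8 to 40.3 after vehicle. The part of the other subunits in the lower Gabrd share was not tested. Nor was it computed how often such shares of other genes do not overlap.

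The ratio of Gabrd to Gabra4, the subunit pair of dentate granule cells, was 0.561, 0.545, 0.564 and 0.662 in TPM after AM6545 and 1.14, 0.756 and 0.845 after vehicle. It was thus above 1 in vehicle replicate B alone, and the groups did not overlap. The log2 fold changes of these genes differed by -0.53. That difference was -0.41 without vehicle replicate B, -0.65 without D and -0.55 without E. After the GC and length correction it was -0.23. The ratio of Gabrb1 to Gabrb2 was 4.51, 4.28, 3.76 and 5.46 after AM6545 and 9.90, 4.80 and 4.41 after vehicle. It stood out in vehicle replicate B and overlapped between the groups. The size of this ratio depends on the length used for Gabrb1, whose short transcript is 799 bases long. With the longest transcript as length, mean levels were 29.2 TPM for Gabrb1 and 18.7 TPM for Gabrb2. The absence of overlap was not particular to Gabra4 as the partner. Gabrd to Gabrb2 was at 1.69 to 2.28 after AM6545 and 2.48 to 4.75 after vehicle. The ratios of Gabra4 to Gabra5 and of Gabra2 to Gabra5 overlapped. How often ratios of other genes do not overlap was not computed.

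Across the 7 libraries some subunits varied together. These correlations of log2 CPM are descriptions over libraries that share treatments, depth and GC trend. Gabra4 and Gabrb2 had a Pearson r of 0.987 and a Spearman rho of 0.893, the highest r of the 21 pairs. Without vehicle replicate B and AM6545 replicate E, the libraries farthest from the median of Gabra4, r was 0.947 over the other 5, and with GC and length corrected it was 0.924 over all 7. Gabra2 and Gabra3 had an r of 0.933, which was 0.967 without the 2 libraries farthest from the median of Gabra2 and 0.699 after that correction. The median over all pairs was 0.34, and the lowest r was -0.57, between Gabrb1 and Gabrb2. With GC and length corrected that pair had an r of -0.25, and the lowest was -0.62, between Gabra2 and Gabrb2. For Gabra4 and Gabrd r was -0.21, and 0.43 with GC and length corrected.

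**Figure D4:**
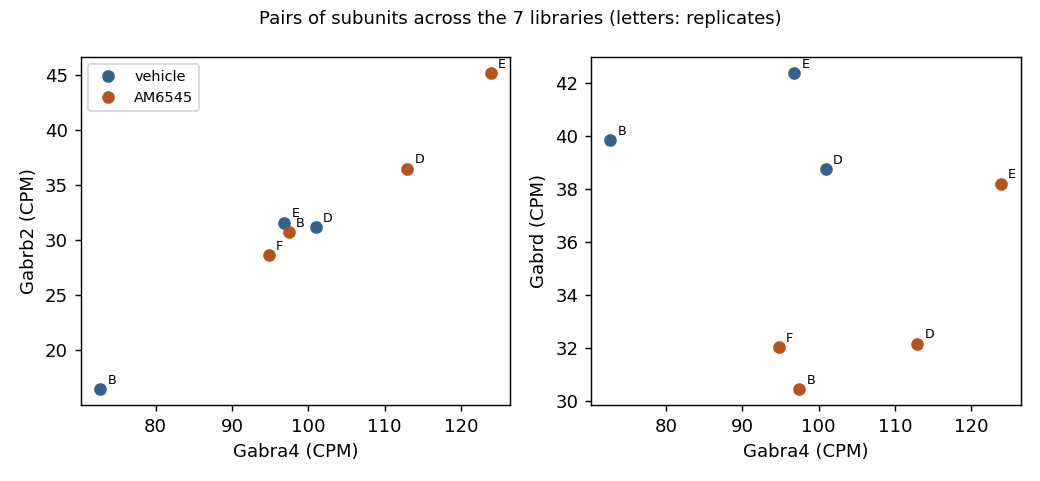
Level of Gabrb2 (left) and of Gabrd (right) against that of Gabra4 in CPM, with 1 labelled point per library. Gabra4 and Gabrb2 lie along a line from vehicle replicate B to AM6545 replicate E (r 0.987, n = 7), whereas the 3 vehicle libraries lie above the AM6545 libraries in Gabrd.

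Because Gabra4 and Gabrb2 varied together, the sequence before their RefSeq transcription starts (RefSeq annotation of GRCm38.p6) is shown, 5′ to 3′ in the sense of each gene. Capitals mark the GC box (GGGCGG or its reverse complement CCGCCC) and the TATA box (TATAAA or its reverse complement TTTATA), both searched on both strands. A GC box and a TATA box cannot overlap each other.
Gabra4: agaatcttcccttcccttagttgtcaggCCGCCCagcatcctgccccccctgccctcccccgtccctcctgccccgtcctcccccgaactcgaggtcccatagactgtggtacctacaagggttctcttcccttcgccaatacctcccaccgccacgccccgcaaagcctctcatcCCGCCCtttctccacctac
Gabrb2: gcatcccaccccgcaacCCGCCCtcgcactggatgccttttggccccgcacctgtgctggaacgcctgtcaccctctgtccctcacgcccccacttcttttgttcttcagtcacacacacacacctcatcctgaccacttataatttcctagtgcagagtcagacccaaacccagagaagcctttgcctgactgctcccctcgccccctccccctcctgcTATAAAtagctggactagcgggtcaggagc
The Gabra4 stretch is chr5:71658364-71658558 on the minus strand, the part of the window that no annotated exon covers, and lies in an intron of Gabrb1-202 on the opposite strand. It held 2 GC boxes and no TATA box. The Gabrb2 stretch is chr11:42420190-42420439 on the plus strand and held 1 GC box and 1 TATA box, the latter ending 24 bases before the start. It precedes 1 of the 3 RefSeq starts of Gabrb2, and the windows of the other starts held neither motif. The stretch lies downstream of the first exon of Gabrb2-201, the transcript that took most of the gene's counts. Of the other subunits, the Gabra2 window held 2 GC boxes. The Gabra3 windows overlap each other and held the same 1 TATA box, in its reverse complement TTTATA. The Gabrb1 and Gabra5 windows held neither motif. Of all 32851 RefSeq windows of 300 bases, 35.7% held a GC box and 13.6% a TATA box. Those windows include 50 bases after the start and are longer than the stretches shown, of 195 and 250 bases. RefSeq windows matched 6 of the 7 subunits, and Gabrd had no entry.

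The genes most like each subunit over the 7 libraries were also listed, by r of log2 CPM among 10926 named genes with a mean of at least 5 CPM. For Gabra4 they were Fcho2 (r 0.994) and Gabrb2, and for Gabrb2 they were Pls1 (r 0.988) and Gabra4. For Gabrd they were Dusp15 (r 0.959) and Tyro3 (r 0.937), the lowest values for any subunit. For Gabra2 Slc38a9 came first (r 0.975), and for Gabra3 they were Tmem132d (r 0.977) and Enpp4 (r 0.975). For Gabra5 they were Srsf12 (r 0.981) and Slc25a44 (r 0.977), and for Gabrb1 Ephx4 (r 0.988) and Pfdn2 (r 0.987). With so many genes searched over 7 libraries, high values of r are common, and they are given as a description.

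Of the 27 transcripts of the subunit genes, 19 passed the filter on low counts and 0 had a Benjamini-Hochberg adjusted p under 0.05 in edgeR's test, beside 0.0177% of the 33962 transcripts tested. DESeq2 and limma-voom also called 0 of them. At an unadjusted p under 0.05, 1 was higher and 1 lower, where 3.89% and 4.5% of all transcripts tested were, and 8.39% in either direction. Of the 19, 13 had a log2 fold change above 0 and 6 below, where 50.3% of all transcripts tested had one above 0. The other 8 transcripts had too few counts to be tested. Most subunit genes were read almost wholly as 1 transcript. After AM6545 and vehicle, Gabra3-201 took 99.6% and 99.5% of its gene's counts, Gabrb2-201 98.5% and 97.0%, Gabrd-201 95.7% in both, and Gabra4-201 90.6% and 95.0%.

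The transcript with the higher values was Gabra5-203. All 3 annotated transcripts of Gabra5 contain the same coding sequence of 1389 bases and differ in their first exons, which start at positions 57510009 (Gabra5-201), 57509371 (Gabra5-202) and 57510059 (Gabra5-203) of chromosome 7, and in their ends. Gabra5-203 has the shortest 3′ untranslated region, of 705 bases beside 938 and 891. Its level was 74.3, 93.5, 103 and 80.3 CPM after AM6545 and 33.5, 68.3 and 66.8 CPM after vehicle. The groups did not overlap, as for 5.23% of all transcripts tested in this direction and 10.8% in either, and vehicle replicate B was lowest. In edgeR the log2 fold change was 0.64 (SE 0.26), with an unadjusted p of 0.045 and an adjusted p of 0.584 by edgeR with Benjamini-Hochberg adjustment. Without vehicle replicate B it was 0.38, and without vehicle replicate D or E it was 0.81 or 0.78.

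As a share of the gene's counts, Gabra5-203 made up 25.2%, 30.0%, 28.7% and 24.2% after AM6545 and 11.6%, 21.7% and 23.1% after vehicle. Every AM6545 library was above every vehicle library, and AM6545 replicate F and vehicle replicate E were the closest. The share of Gabra5-201 was 47.8% ± 3.57 (SD, n = 4) after AM6545 and 54.9% ± 5.26 (SD, n = 3) after vehicle, again without overlap, and that of Gabra5-202 was 25.2% and 26.3%. Since the shares of a gene sum to 100%, these values are not independent of each other. Gabra5-203 has 44.7% GC beside 47.1% for Gabra5-201, and the part of that difference in the shares was not tested.

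**Figure D5:**
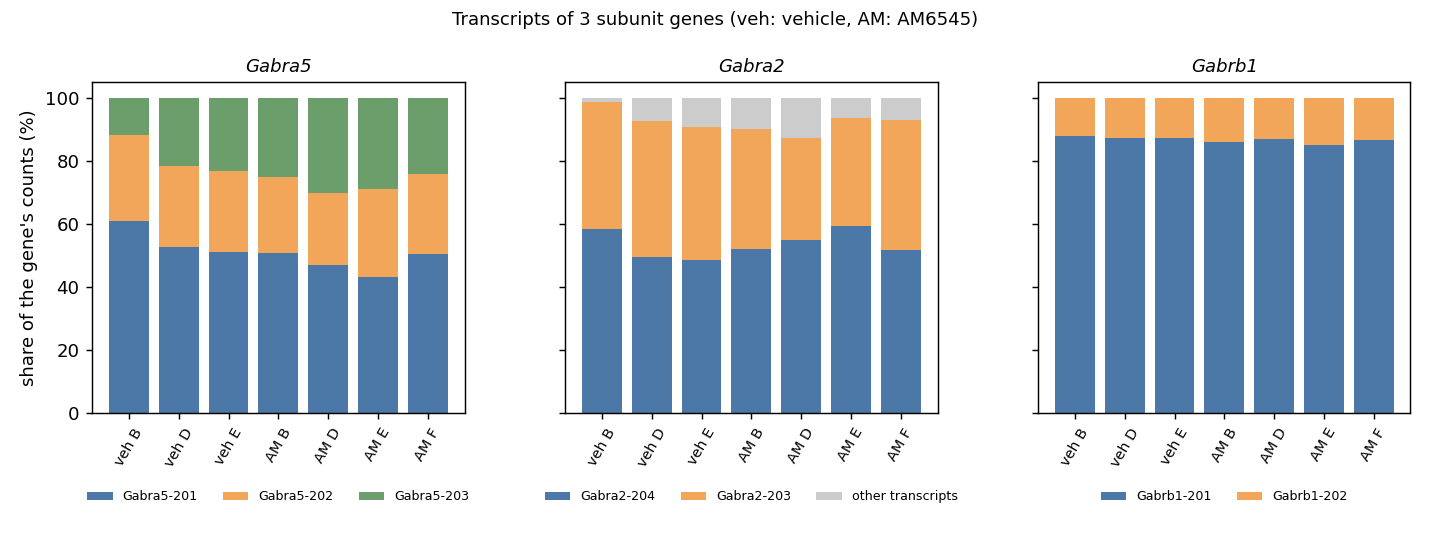
Share of the gene's estimated counts (%) taken by each transcript of Gabra5, Gabra2 and Gabrb1 in each library. Gabra5-203 is between 24.2% and 30.0% after AM6545 and between 11.6% and 23.1% after vehicle, with the smallest share in vehicle replicate B.

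The lower transcript was Gabrd-201, which carried nearly all counts of its gene. Its log2 fold change was -0.27 (SE 0.097), with an unadjusted p of 0.026 and an adjusted p of 0.561 by edgeR with Benjamini-Hochberg adjustment, and the groups did not overlap. Of all transcripts tested, 5.59% were lower without overlap. In Gabra2 the largest share was that of Gabra2-204, which is annotated as a target of nonsense-mediated decay, at 54.5% ± 3.58 after AM6545 (SD, n = 4) and 52.2% ± 5.45 after vehicle (SD, n = 3). The coding transcript Gabra2-203 took 36.6% ± 3.87 and 41.9% ± 1.56, and both overlapped between the groups. In Gabrb1 the short transcript Gabrb1-202, which is annotated without a 3′ untranslated region, took 13.8% ± 0.893 and 12.4% ± 0.389, without overlap. In all, shares did not overlap between the groups for 4 of the 11 transcripts with a mean share of at least 10%, the 2 of Gabrb1 and 2 of Gabra5, and each pair is linked because shares sum to 100%. Over all genes with at least 2 detected transcripts, this was so for 8.63% of 20615 such transcripts. The level of Gabrb1-202 itself had a log2 fold change of 0.07 (adjusted p 0.911, edgeR with Benjamini-Hochberg adjustment). Over the 19 transcripts tested the adjusted p-values lay between 0.561 and 0.939.

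The other genes of the GABA pathway gave 0 calls among the 45 tested of 50 listed, by edgeR with Benjamini-Hochberg adjustment, and 4 at an unadjusted p under 0.05, where 14.6% of all genes tested were. DESeq2 called 0. With limma-voom 1 of the 45 was called (Hap1), beside 394 of all genes (2.69%). Without vehicle replicate E, edgeR called 6 of the 45, 4 higher and 2 lower, beside 944 of 14807 genes (6.38%). Of the 12 other GABA-A subunit genes 7 were tested, 5 with a log2 fold change above 0 and 2 below, with a median of 0.09. Among those with the smallest p were Gabrg1 (0.28) and Gabrg3 (-0.14), which encode γ subunits, with adjusted p-values of 0.345 and 0.648 by edgeR with Benjamini-Hochberg adjustment.

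Among 23 genes for clustering and trafficking of GABA-A receptors, 13 had a log2 fold change above 0 and 10 below, with a median of 0.05. Here 1 was higher and 3 were lower at an unadjusted p under 0.05, beside 5.86% and 8.7% of all genes. Hap1, which encodes huntingtin-associated protein, a factor in the recycling of the receptors, was at 0.43 (adjusted p 0.218). Iqsec3, which encodes a gephyrin-binding exchange factor of inhibitory synapses, was at -0.52 (adjusted p 0.236), and Shisa7, which encodes an auxiliary subunit of the receptor, at -0.33 (adjusted p 0.266). Nlgn2, the adhesion protein neuroligin of inhibitory synapses, was the third lower gene, named after its values were seen, at -0.84 (adjusted p 0.269). Its level was 24.1, 26.1, 24.4 and 26.7 CPM after AM6545 and 71.9, 39.6 and 23.6 CPM after vehicle, so that the groups overlapped. Leaving out vehicle replicate B gave -0.33 for Nlgn2, -0.28 for Iqsec3 and -0.17 for Shisa7. Leaving out vehicle replicate E instead gave -1.14, -0.69 and -0.42, farther from 0. Hap1 was at 0.37 without B and at 0.58 without E. Gphn, which encodes gephyrin, the scaffold that holds the receptors at the synapse, was at 0.09 (adjusted p 0.782). It was at -0.01 without vehicle replicate B and at 0.23 without vehicle replicate E. All of these p-values are from edgeR with Benjamini-Hochberg adjustment.

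Among the 10 genes for GABA synthesis, packaging, uptake and chloride transport, 5 had a log2 fold change above 0 and 5 below, none at an unadjusted p under 0.05, and the median was 0.01. Gad1 and Gad2, which encode the enzymes that make GABA, were at 0.29 and 0.12 (adjusted p 0.345 and 0.650, edgeR with Benjamini-Hochberg adjustment). Abat, which encodes the enzyme that breaks GABA down, was at 0.30 (adjusted p 0.467), and Slc12a5, the neuronal chloride exporter, at -0.22 (adjusted p 0.420). Slc32a1, the vesicular transporter for GABA, was at -0.25 (adjusted p 0.521). With vehicle replicate B left out, Gad1, Gad2, Abat, Slc12a5 and Slc32a1 were at 0.18, 0.01, 0.13, -0.06 and -0.06. With vehicle replicate E left out instead, they were at 0.46, 0.18, 0.54, -0.28 and -0.40, farther from 0. The 5 genes of GABA-B receptors and their auxiliary subunits had a median of -0.02, with 2 above 0 and 3 below. Of these, Kctd8 was at 0.16, Gabbr1 at -0.13 and Kctd12 at -0.07, with adjusted p-values of 0.529 to 0.831. In the fit that omits vehicle replicate B, Gabbr1 was at 0.0011, Kctd12 at 0.07 and Gabrg3, of the γ subunits above, at -0.05. In the fit that omits vehicle replicate E, they were at -0.24, -0.19 and -0.23.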

How the data were processed

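The values are estimated counts per gene and per transcript that the authors deposited for 7 libraries, unscaled; 83.5% of gene values above 0 were not whole numbers. The submitters' processing notes name Salmon 1.5.2 and the genome build mm10. Per the labels' protocols, RNA was extracted with RNeasy columns and amplified with a SMARTer low-input library kit. Annotation and use of strand are not given in the sources used here.

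Gene symbols were matched by identifier for 22148 genes. Transcript lengths, GC content and coordinates came from GENCODE M21 (GRCm38), which matched 101527 transcripts and gave length and GC for 22137 genes. Gene identifiers are printed with their deposited versions, and the annotation used for counting may be newer than GENCODE M21. Counts were rounded and tested over all genes or transcripts with edgeR 4.0.16 (R 4.3.3): quasi-likelihood test, TMM scaling, filterByExpr, robust fit, no covariates, Benjamini-Hochberg adjusted p under 0.05. Standard errors are the absolute log2 fold change over the square root of F. CPM are TMM-scaled. TPM were computed from transcript counts and annotated lengths. GC content and length were corrected per library by lowess (span 0.3). Alternatives were other scalings and filters, DESeq2 1.42.0, limma-voom (limma 3.58.1) with quality weights, the replicate letter as a block, and leaving out each library. The code was tested on simulated data.

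All 7 subunits are named, as are transcripts with a mean share of at least 10% in either group, the 2 genes most alike to each subunit, and of each list the 3 genes with the smallest p plus Gphn, Gad1, Gad2 and Slc32a1, of which 2 genes are not reported here by name. The members, lists, ratios and motifs were chosen with earlier results of these data known.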

Additional observations from a re-analysis of the deposited data

Results flagged for a closer look

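Of 32 values checked for a library far from the rest of its group, 2 stood apart by Dixon's criterion for 4 libraries. By chance about 1 in 20, or 1.6, would. The criterion for 4 did not cover the 3 vehicle libraries, of which replicate B stood apart for several subunits, as described above. Gabrb1 was at 148 CPM in AM6545 replicate B, with the other AM6545 libraries between 173 and 174 CPM. Gabra4 made up 10.1% of the summed TPM of the 7 subunits in AM6545 replicate F, with the other AM6545 libraries between 12.04% and 12.21%.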

How the results depend on the processing

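The count of subunit genes and of their transcripts past the threshold was 0 under every alternative run, and Gabra4, Gabrb2 and Gabrd kept their direction in all 19. The log2 fold change of Gabra2 was -0.17 after the GC and length correction, -0.16 with the replicate block added to it, -0.0051 without AM6545 replicate E and -0.00029 without vehicle replicate E, and lay between -0.0051 and 0.093 when each library was left out. That of Gabra3 was -0.093 and -0.029 in the first 2 settings and between -0.034 (without AM6545 replicate E) and 0.24 when each was left out. That of Gabra5 was -0.020 and -0.040 in the first 2, and that of Gabrb1 lay between -0.17 and 0.014 (without vehicle replicate B) when each was left out. The pathway count of 0 was 1 with limma-voom, where 394 of all genes were called, and between 0 and 6 when each library was left out. The 6 (Gad1, Hap1, Iqsec3, Nlgn2, Nsf and Ubqln1) were called without vehicle replicate E, where 944 of all 14807 genes were called beside 1 with all libraries. The cause was not tested. With the longest transcript as length, levels were 36.3 TPM for Gabra2, 274 for Gabra5, 29.2 for Gabrb1 and 31.2 for Gabrd.

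The replicate letters occur in both groups, but the labels do not say what they mark, so they were not taken as pairs. Same-lettered libraries did not deviate together (r -0.26 for B, -0.13 for D and -0.18 for E). With so few libraries, these values cannot exclude a pairing. With the letter as a block, edgeR called 0 subunit genes. Gabrb2 was then at 0.55 (unadjusted p 0.009, Benjamini-Hochberg adjusted p 0.595) and Gabra4 at 0.31 (unadjusted p 0.041, adjusted p 0.609). Gabrd was at -0.27 (unadjusted p 0.076, adjusted p 0.631). At an unadjusted p under 0.05 in that fit there were 2 of the 7 subunit genes, beside 1199 of the 14654 genes tested. How far the number of libraries or their depth limits the precision was not compared.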
